A study of Bos taurus with 8 samples.

Results

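The genes described are 39 components of the junctions that hold epithelial cells together, followed in cultured bovine mammary epithelial cells after RNA interference against EEF1D. They were taken as the probes that carry one of these 39 gene names in the scanner files, with the brightest probe standing for each gene. Of the 39, 35 had a probe well above background on at least 2 arrays and were tested, among 12738 genes tested in all. The cells were primary bovine mammary epithelial cells (BMECs), isolated from the mammary tissue of a lactating Holstein cow and used at the fifth passage. The groups were 3 arrays of cells with the EEF1D-1357 short hairpin RNA (shRNA), 3 arrays of cells with the EEF1D-1893 shRNA, and 2 arrays of control cells without shRNA. An shRNA lowers its target mRNA, and EEF1D codes for eEF1D (eEF1Bδ), a subunit of the elongation complex of protein synthesis. No group with a non-targeting shRNA is named in the labels, and the effect of carrying any shRNA therefore cannot be told apart from that of lower EEF1D. Whether the controls carried a negative construct is uncertain. Nothing in the labels says that replicates came from separate cultures, and the p-values then reflect the spread of these arrays alone, which may be technical.

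Epithelial cells are joined by several kinds of contact. Tight junctions seal the space between neighbours through claudins and occludin, which cytoplasmic scaffolds such as ZO-1 tie to actin, and in the mammary gland they close during lactation so that milk stays in the alveolar lumen. Adherens junctions couple E-cadherin to actin through catenins, desmosomes couple desmogleins and desmocollins to keratin filaments through plakoglobin, plakophilins and desmoplakin, and gap junctions are channels of connexins that pass small molecules from cell to cell.

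On each array 60.6% to 71.5% of the probes exceeded background clearly, by the scanner software's flag. Its 75th percentile of spot intensity was 1265 to 2078 units, with 0 saturated spots, and the small number of arrays limits the precision. All levels below are scaled log2 signals, that is log2 of the background-subtracted intensity minus the 75th percentile of the same array, and levels of different probes are not compared. EEF1D had scaled log2 signals of 5.98, 5.87 and 5.10 with EEF1D-1357 and of 6.0, 5.75 and 5.78 with EEF1D-1893, against 7.13 and 6.15 in the controls. All 6 shRNA arrays lay below both controls, and the mean level with both shRNAs was 53.9% of the control mean (log2 fold change -0.89, SE 0.32, limma adjusted p = 0.245). Leaving out control replicate 2 gave an EEF1D log2 fold change of -1.38 with an adjusted p of 0.0378. Leaving out control replicate 1 gave -0.40, with an adjusted p of 0.591. The scanner files place the EEF1D-1357 arrays beside control replicate 2 on slide 1. The EEF1D-1893 arrays share slide 2 with control replicate 1. The 2 controls differed from each other by more than shRNA replicates did, with an SD of the log2 difference over genes of 0.83, against 0.50 to 0.73 between arrays of one shRNA.

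The label of epithelial cells was checked against marker genes. Of 9 luminal markers 7 were well above background on all 8 arrays, as were 6 of 8 basal, 5 of 10 fibroblast and 5 of 8 leukocyte markers. Endothelial markers reached this in 1 of 8 cases and adipocyte markers in 0 of 4. The summed fibroblast markers ranged over 7.89 to 8.27 with EEF1D-1357 and 7.95 to 8.41 with EEF1D-1893, against 7.92 to 8.59 in the controls (scaled log2 sum), and PDGFRB was above background on no array. For summed leukocyte markers the ranges were 2.47 to 2.94 with EEF1D-1357 and 2.18 to 2.61 with EEF1D-1893, against 2.49 to 2.97 in the controls, and CD3E was above background on no array. Summed luminal markers ranged over 8.81 to 8.92 with EEF1D-1357 and 8.82 to 9.01 with EEF1D-1893, against 8.87 to 9.82 in the controls, and the prolactin receptor gene PRLR was above background on no array. Summed basal markers ranged over 7.92 to 8.22 with EEF1D-1357 and 7.98 to 8.66 with EEF1D-1893, against 8.44 to 8.54 in the controls. Gene by gene, 6 of 7 tested luminal, 6 of 7 basal, 8 of 9 fibroblast and 4 of 5 leukocyte markers were below 0 with both shRNAs. Their median log2 fold changes were -0.44, -0.41, -0.32 and -0.11. Above 0 were 2 of 3 tested endothelial and 2 of 2 adipocyte markers, with medians of 0.97 and 0.61. None of these markers was called. Of all 12738 genes tested, 7290 were below 0, with a median of -0.07. KRT18 (luminal), OXTR (basal) and CD3D (leukocyte) were lower on every shRNA array than on both controls. These were 3 of 33 tested markers, beside 9.04% of all genes, and 0 of the 33 lay above both controls, beside 7.72%. The part of cell composition in the results below was not tested. In such bulk RNA, fewer cells of a type and less RNA per cell cannot be told apart.

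Array probes are 60 bases long and were placed by the files on the build Btau_3.1. The 3 claudin probes below are shown because they read the same conserved stretch of related genes. The capitals mark a run of 8 bases that all 3 share. In their best ungapped alignments, the CLDN3 and CLDN4 probes matched at 37 of 47 bases, the CLDN3 and CLDN6 probes at 35 of 45, and the CLDN4 and CLDN6 probes at 26 of 32. Whether these probes bind each other's transcripts was not tested.
CLDN3, chr25:35569274-35569333, plus strand: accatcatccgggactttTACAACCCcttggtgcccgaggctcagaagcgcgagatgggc
CLDN4, chr25:35539489-35539548, minus strand: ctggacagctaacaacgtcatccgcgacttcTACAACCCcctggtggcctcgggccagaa
CLDN6, chr25:2992079-2992138, minus strand: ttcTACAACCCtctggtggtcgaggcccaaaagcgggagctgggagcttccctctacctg
The next set reads members on which the results turn, with no part marked. For DSG2 and CDH1 it shows a dimmer probe than the one used for the gene. DSC3, DSG2 and DSG3 lie in one cluster of desmosomal cadherin genes on chromosome 24, where DSC2 (chr24:27130928-27130987) was also placed. The MARVELD2 and CDH1 positions span more than the length of their probes.
MARVELD2, chr20:10908383-10911428, minus strand: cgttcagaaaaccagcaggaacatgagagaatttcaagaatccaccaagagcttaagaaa
OCLN, chr20:10821842-10821901, minus strand: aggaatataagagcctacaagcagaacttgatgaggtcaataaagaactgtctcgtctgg
PARD3, chr13:18132631-18132690, plus strand: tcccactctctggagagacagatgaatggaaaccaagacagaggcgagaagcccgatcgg
CDH1, chr18:35135489-35136248, plus strand: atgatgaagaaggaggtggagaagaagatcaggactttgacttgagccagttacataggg
DSC3, chr24:27201154-27201213, plus strand: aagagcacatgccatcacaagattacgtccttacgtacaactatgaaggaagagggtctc
DSG2, chr24:26685819-26685878, minus strand: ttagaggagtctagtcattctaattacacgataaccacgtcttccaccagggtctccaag
DSG3, chr24:26767783-26767842, minus strand: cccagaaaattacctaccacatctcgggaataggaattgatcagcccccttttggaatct
GJB2, chr12:36421523-36421582, plus strand: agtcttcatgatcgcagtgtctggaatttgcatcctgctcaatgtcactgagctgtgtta

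With both shRNAs against control, DSC2, DSC3 and CLDN12 had higher signals on every shRNA array than on either control, by 1.72-fold, 1.52-fold and 1.35-fold, and PARD3 had lower signals on every shRNA array, at 0.566 of the control level. None of these passed the test. Of the 35 members, 0 were called by limma at an adjusted p under 0.05, as were 0 of all 12738 genes tested (0%), and the smallest adjusted p of a member was 0.147. At an unadjusted p under 0.05 there were 5 members, namely CLDN12, MARVELD2, PARD3, DSC2 and DSC3, beside 16.8% of all genes. Groups did not overlap for 4 members, beside 16.8% of all genes: 3 lay above the controls, beside 7.72%, and 1 below, beside 9.04%.

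**Figure D1:**
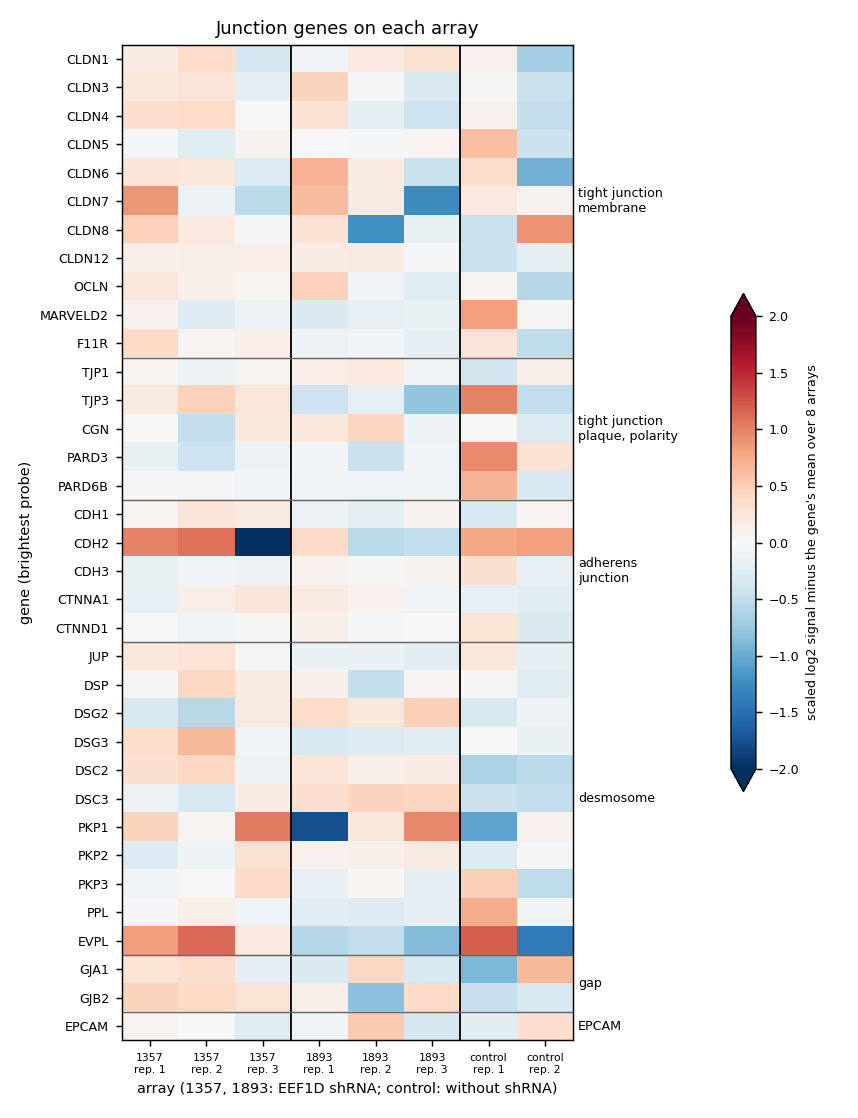
Scaled log2 signal of the 35 tested members (rows, by junction type) on the 8 arrays (columns: EEF1D-1357, EEF1D-1893, control), drawn as the difference from each gene's mean over the 8 arrays; the colour scale is capped at 2.0 in both directions. DSC2 and DSC3 are lowest in both control columns, PARD3 is highest in them, and many tight junction genes differ between the 2 control columns.

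The members' median log2 fold change was 0.17 with both shRNAs against control, beside -0.07 over all genes, and 23 of 35 were above 0, beside 42.8% of all genes. Each shRNA was also set against the same 2 control arrays, so these comparisons share their controls. With EEF1D-1357 the median was 0.14 beside -0.09, and 23 members were above 0, beside 41.5% of all genes. With EEF1D-1893 it was 0.02 beside -0.03, and 20 members were above 0, beside 46.9% of all genes. Per array, the median deviation of the members from their own means was 0.10, 0.12 and 0.03 with EEF1D-1357 and 0.08, -0.03 and -0.10 with EEF1D-1893, against 0.05 and -0.23 in the controls. Over all genes the same medians were -0.02, -0.07 and -0.03 with EEF1D-1357 and 0.02, 0.01 and 0.02 with EEF1D-1893, against 0.19 and -0.06 in the controls. The members' array medians overlapped between groups as measured. Without control replicate 2 the members' median for both shRNAs was 0.02, beside -0.22 over all genes, and without control replicate 1 it was 0.27, beside 0.06.

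Tight junction membrane proteins, with 11 tested genes, centred on a log2 fold change of 0.27 (median), of which 7 were above 0 with both shRNAs and 0 were called. The 8 tested claudins, whose extracellular loops set which ions cross the seal, also had a median of 0.27. Both medians moved with the control that was kept, as did that of all genes. Without control replicate 2 they were -0.013 for the 11 genes and -0.0034 for the claudins, beside -0.22 over all genes. Without control replicate 1 they were 0.51 for the 11 genes and 0.45 for the claudins, beside 0.06 over all genes. CLDN12 had scaled log2 signals of 1.11, 1.13 and 1.14 with EEF1D-1357 and of 1.16, 1.18 and 0.96 with EEF1D-1893, against 0.56 and 0.81 in the controls. All 6 shRNA arrays lay above both controls. The log2 fold change was 0.43 (SE 0.13, 95% interval 0.13 to 0.73, limma adjusted p = 0.200), with 0.44 for EEF1D-1357 and 0.42 for EEF1D-1893. A second CLDN12 probe gave 0.88. Intervals here and below are for single genes, without adjustment for the number of genes.

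CLDN1, a barrier-forming claudin, had signals of 2.93, 3.15 and 2.43 with EEF1D-1357 and of 2.72, 2.97 and 3.08 with EEF1D-1893, against 2.87 and 2.11 in the controls. The groups overlapped, because control replicate 1 lay among the shRNA arrays while control replicate 2 lay below all of them. Its log2 fold change was 0.39 (SE 0.27, 95% interval -0.24 to 1.01, adjusted p = 0.475). CLDN4, which limits sodium passage in epithelia, had signals of 2.45, 2.48 and 2.09 with EEF1D-1357 and of 2.39, 1.92 and 1.70 with EEF1D-1893, against 2.18 and 1.63 in the controls. Control replicate 2 was again the lowest array and control replicate 1 lay within the shRNA range. The CLDN4 log2 fold change was 0.27 (SE 0.24, 95% interval -0.30 to 0.83, adjusted p = 0.588), and its second probe, shown above, gave 0.25.

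The other claudins gave no call either. CLDN3 had a log2 fold change of 0.28 (SE 0.24, adjusted p = 0.571) at its brightest probe and of -0.56 at the dimmer one shown above, so its probes differed in direction. CLDN6, read by the single probe shown above, had 0.40 (SE 0.41, 95% interval -0.57 to 1.37, adjusted p = 0.634). CLDN7 ranged over 1.30 to 2.72 with EEF1D-1357 and 0.56 to 2.45 with EEF1D-1893, against 1.90 to 2.03 in the controls, a log2 fold change of -0.18 (SE 0.54, adjusted p = 0.888). For CLDN7 the spread within each shRNA group was thus wider than the difference between groups. CLDN8 had a log2 fold change of -0.30 (SE 0.47, adjusted p = 0.767). CLDN5, best known from endothelium, was well above background on 3 arrays only, 1 of each group, and had -0.11 (SE 0.26, adjusted p = 0.84). CLDN2, CLDN10 and CLDN16 were not well above background on any array, and CLDN11 on 1 EEF1D-1357 array, so these 4 members were not tested.

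Occludin and tricellulin (MARVELD2) are relatives with the same membrane fold; tricellulin seals the corners where cells meet. OCLN had scaled log2 signals of -0.38, -0.50 and -0.56 with EEF1D-1357 and of -0.15, -0.68 and -0.85 with EEF1D-1893, against -0.56 and -1.18 in the controls. Control replicate 2 was the lowest array and control replicate 1 lay within the shRNA range. The OCLN log2 fold change was 0.35 (SE 0.24, 95% interval -0.21 to 0.91, adjusted p = 0.469), and its probes ranged over 0.25 to 0.57. A second OCLN probe, at 0.57, had controls at -1.03 and -1.07 and all 6 shRNA arrays above them. MARVELD2 had signals of 0.42, 0.09 and 0.23 with EEF1D-1357 and of 0.05, 0.17 and 0.20 with EEF1D-1893, against 1.17 and 0.37 in the controls. Control replicate 1 was the highest array, and control replicate 2 lay within the EEF1D-1357 range and above all EEF1D-1893 arrays. The MARVELD2 log2 fold change was -0.57 (SE 0.22, 95% interval -1.08 to -0.06, adjusted p = 0.263). Without control replicate 1 it was -0.17, and without control replicate 2 it was -0.97. Its other probes gave -0.44 and 0.03. F11R, the junctional adhesion molecule JAM-A, had a log2 fold change of 0.18 (adjusted p = 0.691).

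Among the 5 tight junction plaque and polarity proteins, the median log2 fold change was -0.25 with both shRNAs, and 0 were called. It was -0.74 without control replicate 2, beside -0.22 over all genes, and 0.23 without control replicate 1, beside 0.06. PARD3 is the scaffold of the PAR polarity complex that helps place tight junctions. PARD3 had scaled log2 signals of 2.32, 2.06 and 2.36 with EEF1D-1357 and of 2.42, 2.03 and 2.40 with EEF1D-1893, against 3.41 and 2.76 in the controls. All 6 shRNA arrays lay below both controls. The log2 fold change was -0.82 (SE 0.21, 95% interval -1.32 to -0.32, adjusted p = 0.166), with -0.84 for EEF1D-1357 and -0.80 for EEF1D-1893. All 5 of its probes were below 0, from -0.82 to -0.37. Without control replicate 2 it was -1.15 with an adjusted p of 0.020, and without control replicate 1 it was -0.49 with an adjusted p of 0.311.

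TJP1, the scaffold ZO-1, had signals of 2.36, 2.22 and 2.37 with EEF1D-1357 and of 2.46, 2.52 and 2.28 with EEF1D-1893, against 1.96 and 2.45 in the controls. Control replicate 1 was the lowest array and control replicate 2 lay among the shRNA arrays. The TJP1 log2 fold change was 0.16 (SE 0.16, 95% interval -0.22 to 0.55, adjusted p = 0.627), and its 5 probes ranged over -0.22 to 0.16. TJP3, the scaffold ZO-3, had a log2 fold change of -0.34 (SE 0.37, adjusted p = 0.656). CGN, which encodes cingulin, had 0.18 (SE 0.23, adjusted p = 0.699). PARD6B, a partner of PARD3, averaged 3.52 ± 0.02 with EEF1D-1357 and 3.47 ± 0.01 with EEF1D-1893 (SD, n = 3 each), against 4.23 and 3.26 on the 2 control arrays. Its shRNA arrays therefore lay between the controls, with a log2 fold change of -0.25 (SE 0.24, adjusted p = 0.601).

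For the 5 adherens junction genes the log2 fold changes with both shRNAs centred on a median of 0.01, and 0 were called. That median was -0.27 without control replicate 2, beside -0.22 over all genes, and 0.13 without control replicate 1, beside 0.06. CDH1, which encodes E-cadherin, had scaled log2 signals of 3.96, 4.17 and 4.08 with EEF1D-1357 and of 3.79, 3.71 and 3.97 with EEF1D-1893, against 3.60 and 3.95 in the controls. At this brightest probe EEF1D-1357 arrays lay just above both controls, while EEF1D-1893 arrays overlapped with them. The log2 fold change was 0.17 (SE 0.15, 95% interval -0.18 to 0.52, adjusted p = 0.567) with both shRNAs. Its other probes gave -0.27 and, for the one shown above, -0.00. CDH3, which encodes P-cadherin of basal cells, had signals of -2.08, -2.02 and -2.03 with EEF1D-1357 and of -1.85, -1.90 and -1.85 with EEF1D-1893, against -1.61 and -2.09 in the controls. The controls spanned all shRNA arrays, and the log2 fold change was -0.11 (SE 0.15, 95% interval -0.45 to 0.24, adjusted p = 0.736). Its dimmer probes gave -1.22 and -0.73.

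CDH2, which encodes N-cadherin of mesenchymal cells, had signals of -2.01, -1.92 and -6.05 with EEF1D-1357 and of -2.63, -3.55 and -3.50 with EEF1D-1893, against -2.23 and -2.19 in the controls. The array at -6.05 was not well above background, and the EEF1D-1893 arrays lay below both controls. The CDH2 log2 fold change was -1.07 (SE 1.05, 95% interval -3.55 to 1.41, adjusted p = 0.621), and it was -0.39 without EEF1D-1357 replicate 3. In EEF1D-1357 alone it was -1.12, and 0.24 without that array. A second CDH2 probe gave -0.72 with both shRNAs, -0.14 for EEF1D-1357 and -1.31 for EEF1D-1893. For EEF1D-1357 over EEF1D-1893 that probe gave 1.17, against -0.10 at the brightest probe. CTNNA1, which encodes alpha-catenin, had a log2 fold change of 0.26 (SE 0.15, 95% interval -0.09 to 0.61, adjusted p = 0.404). CTNND1, which encodes p120-catenin, had 0.01 (SE 0.17, 95% interval -0.38 to 0.40, adjusted p = 0.988).

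**Figure D2:**
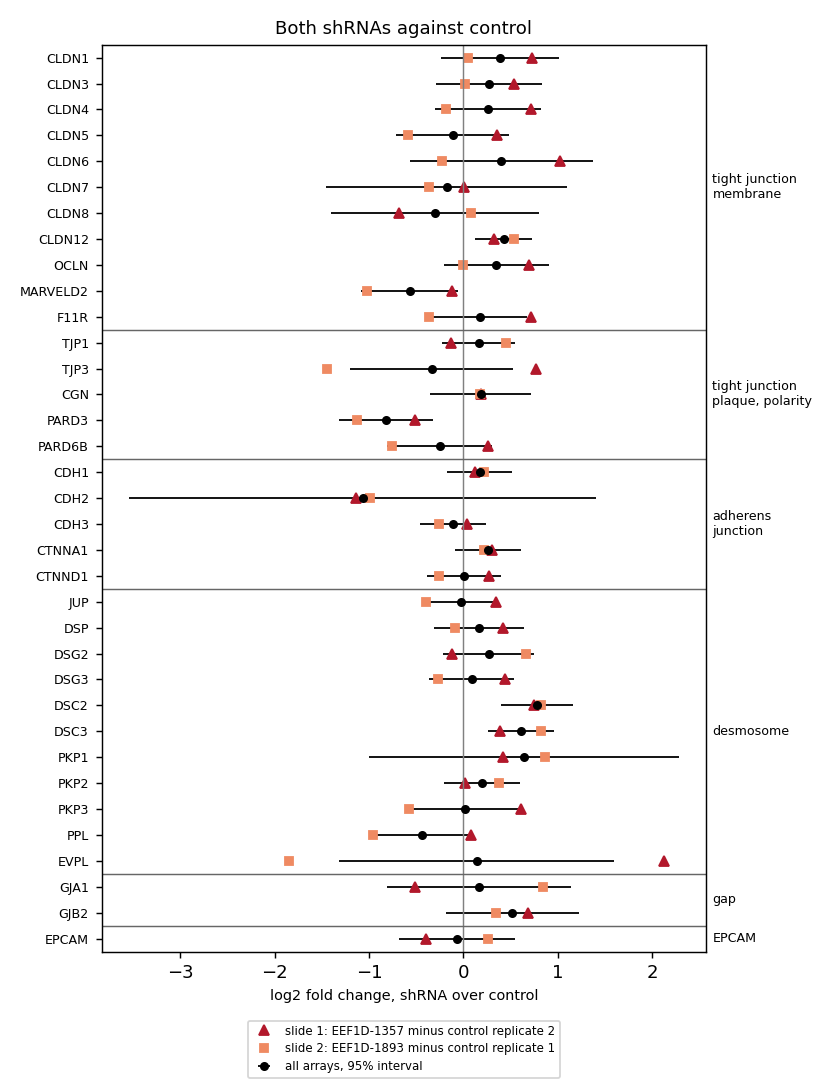
Log2 fold change of the 35 members with both shRNAs over control (black points with 95% intervals), and the same within each slide (triangles, slide 1: EEF1D-1357 minus control replicate 2; squares, slide 2: EEF1D-1893 minus control replicate 1). The intervals of CLDN12, MARVELD2, PARD3, DSC2 and DSC3 leave out 0, and the slide values of TJP3 and EVPL lie far apart on opposite sides of 0.

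Desmosome genes (11 tested) centred on a log2 fold change of 0.17 with both shRNAs, and 9 were above 0 with 0 called. The desmosome median was 0.32 for EEF1D-1357, with 9 above 0, and 0.02 for EEF1D-1893, with 6 above 0. For both shRNAs it was 0.06 without control replicate 2, beside -0.22 over all genes, and 0.19 without control replicate 1, beside 0.06. DSC2 encodes desmocollin 2, one of the adhesive cadherins of the desmosome. DSC2 had scaled log2 signals of 5.07, 5.16 and 4.64 with EEF1D-1357 and of 5.0, 4.87 and 4.92 with EEF1D-1893, against 4.11 and 4.21 in the controls. All 6 shRNA arrays lay above both controls. The log2 fold change was 0.78 (SE 0.16, 95% interval 0.40 to 1.17, adjusted p = 0.147), with 0.80 for EEF1D-1357 and 0.77 for EEF1D-1893. It ranged over 0.73 to 0.86 as single arrays were left out. It rests on 1 probe.

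DSC3 encodes desmocollin 3, a partner typical of basal layers in stratified epithelia. DSC3 had signals of 0.03, -0.16 and 0.30 with EEF1D-1357 and of 0.48, 0.60 and 0.58 with EEF1D-1893, against -0.27 and -0.33 in the controls. The 3 groups did not overlap, with EEF1D-1893 highest and the controls lowest. The log2 fold change with both shRNAs was 0.61 (SE 0.15, 95% interval 0.26 to 0.96, adjusted p = 0.159). It was 0.36 for EEF1D-1357 (adjusted p = 0.332) and 0.86 for EEF1D-1893 (adjusted p = 0.219), and a second probe gave 0.55 with both. The array's own description of the DSC3 probe names both desmocollin 2 and DSC3, so the gene names are those of the array design.

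The desmogleins bind desmocollins across the gap. DSG2 had signals of 2.23, 1.98 and 2.71 with EEF1D-1357 and of 2.90, 2.76 and 3.00 with EEF1D-1893, against 2.22 and 2.43 in the controls. EEF1D-1893 arrays lay above all others, and EEF1D-1357 arrays spanned the controls. The DSG2 log2 fold change was 0.56 for EEF1D-1893 (SE 0.23, 95% interval 0.02 to 1.10, adjusted p = 0.347) and -0.02 for EEF1D-1357. For EEF1D-1893, 2 of the 3 DSG2 probes were above 0, over a range of -0.01 to 0.56. DSG3 had signals of 0.87, 1.16 and 0.45 with EEF1D-1357 and of 0.21, 0.25 and 0.29 with EEF1D-1893, against 0.52 and 0.38 in the controls. EEF1D-1893 arrays lay below all others at this probe. The DSG3 log2 fold change was 0.38 for EEF1D-1357 (adjusted p = 0.395) and -0.20 for EEF1D-1893 (adjusted p = 0.704). The 2 dimmer DSG3 probes were above 0 for EEF1D-1893, at up to 0.16.

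**Figure D3:**
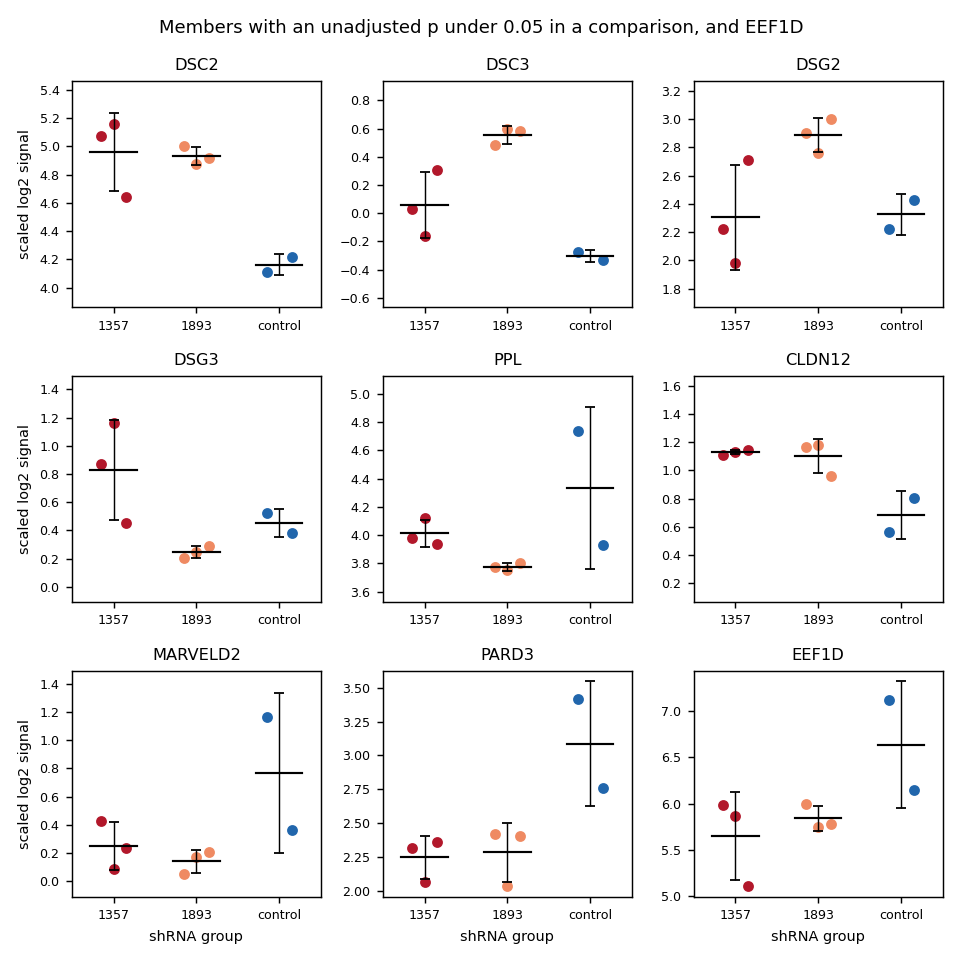
Scaled log2 signal on each array for the 8 members with an unadjusted p under 0.05 in a comparison and for EEF1D, by group (EEF1D-1357, EEF1D-1893, control), with the mean and SD as bars (n = 3, 3 and 2); vertical scales differ and do not start at 0. All shRNA points of DSC2, DSC3 and CLDN12 lie above both control points, and those of PARD3 and EEF1D lie below them.

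In the desmosomal plaque, the JUP and DSP signals of each shRNA overlapped with those of the controls. JUP encodes plakoglobin, which also serves adherens junctions, and had signals of 5.24, 5.30 and 4.99 with EEF1D-1357 and of 4.89, 4.89 and 4.81 with EEF1D-1893, against 5.26 and 4.83 in the controls. The JUP arrays of EEF1D-1357 all lay above those of EEF1D-1893. With both shRNAs the JUP log2 fold change was -0.02 (SE 0.16, 95% interval -0.39 to 0.35, adjusted p = 0.952). Its 3 probes ranged over -0.01 to 0.15 for EEF1D-1357 and -0.20 to -0.14 for EEF1D-1893. DSP encodes desmoplakin, the link to keratin, and had signals of 4.42, 4.86 and 4.63 with EEF1D-1357 and of 4.54, 3.96 and 4.51 with EEF1D-1893, against 4.43 and 4.22 in the controls. The DSP groups all overlapped, at a log2 fold change of 0.17 with both shRNAs (SE 0.20, 95% interval -0.31 to 0.65, adjusted p = 0.696). Its 6 probes ranged over -0.20 to 0.23 with both. They ranged over -0.07 to 0.40 for EEF1D-1357 and -0.32 to 0.06 for EEF1D-1893.

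The plakophilins stabilise the plaque. PKP1 had a log2 fold change of 0.64 (SE 0.70, adjusted p = 0.651), with arrays from 1.25 to 2.24 with EEF1D-1357 and from -0.55 to 2.16 with EEF1D-1893, against 0.15 and 1.29 in the controls. PKP2 had 0.20 (SE 0.17, adjusted p = 0.574) and PKP3 had 0.02 (SE 0.26, adjusted p = 0.981). The 3 PKP3 probes ranged over 0.02 to 0.67. PPL encodes periplakin, a plakin related to desmoplakin. PPL had signals of 3.98, 4.12 and 3.94 with EEF1D-1357 and of 3.77, 3.75 and 3.80 with EEF1D-1893, against 4.74 and 3.93 in the controls. EEF1D-1893 arrays lay below both controls, whereas EEF1D-1357 arrays lay between them. The PPL log2 fold change was -0.56 for EEF1D-1893 (SE 0.23, 95% interval -1.11 to -0.01, adjusted p = 0.35), and -0.15 without control replicate 1. Without control replicate 2 it was -0.96. EVPL, which encodes envoplakin, had 0.14 with both shRNAs (SE 0.62, adjusted p = 0.921), and its controls lay at -2.48 and -5.10.

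Of the gap junction channels, GJA1 encodes connexin 43 and GJB2 connexin 26. GJA1 had signals of 5.90, 5.99 and 5.44 with EEF1D-1357 and of 5.35, 6.05 and 5.32 with EEF1D-1893, against 4.73 and 6.29 in the controls. The 2 controls were its lowest and highest arrays, and the log2 fold change was 0.17 (SE 0.42, 95% interval -0.81 to 1.15, adjusted p = 0.858). A second GJA1 probe gave 0.71 with both shRNAs, 0.91 for EEF1D-1357 and 0.51 for EEF1D-1893. GJB2 had signals of 4.48, 4.43 and 4.30 with EEF1D-1357 and of 4.13, 3.20 and 4.41 with EEF1D-1893, against 3.57 and 3.71 in the controls. EEF1D-1893 replicate 2 lay below both controls, and the other 5 shRNA arrays lay above them. The GJB2 log2 fold change was 0.52 with both shRNAs (SE 0.30, 95% interval -0.19 to 1.22, adjusted p = 0.407) and 0.76 for EEF1D-1357 (adjusted p = 0.319). Its 2 dimmer probes gave 1.35 and 1.34. EPCAM, an adhesion molecule of epithelial cells that associates with claudins, had signals of 4.79, 4.72 and 4.49 with EEF1D-1357 and of 4.64, 5.25 and 4.38 with EEF1D-1893, against 4.50 and 5.06 in the controls. The groups overlapped, at a log2 fold change of -0.07 (SE 0.26, 95% interval -0.68 to 0.55, adjusted p = 0.911).

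Probes of one gene were compared as a check on the choice of the brightest. Of the 29 members with several kept probes, all probes lay above 0 for 11 and below 0 for 8 with both shRNAs against control, and they differed in direction for 10. PARD3 and DSC3 kept one direction over all their probes, whereas MARVELD2, CLDN3, CDH1 and DSG2 did not.

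**Figure D4:**
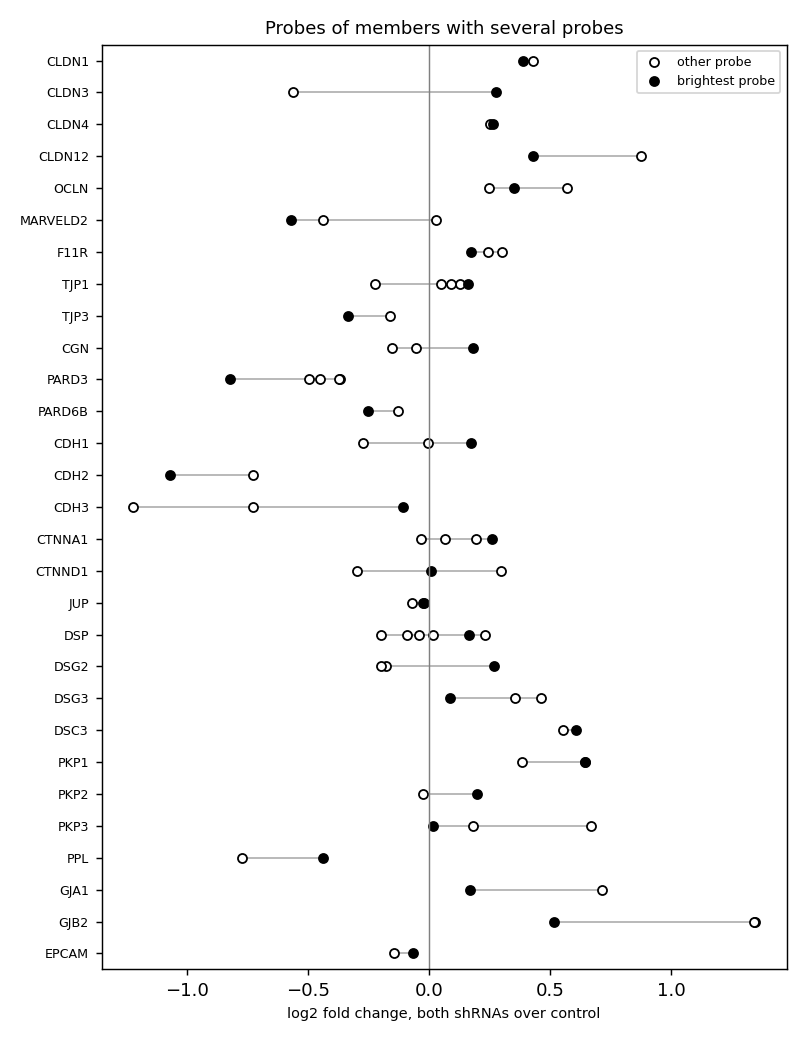
Log2 fold change with both shRNAs over control for each kept probe of the 29 members with several probes (filled, brightest probe; open, other probes). The 5 PARD3 probes lie between -0.82 and -0.37, the GJB2 probes between 0.52 and 1.35, and the CLDN3 and CDH1 probes lie on both sides of 0.

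Each shRNA against control gave 0 called members of 35 by limma, and 0 of all genes (0%). For EEF1D-1357 there were 3 members at an unadjusted p under 0.05, beside 16.1% of all genes: CLDN12, PARD3 and DSC2. Groups did not overlap for 6 members, beside 30.5% of all genes. These were CLDN12, CDH1, DSC2, DSC3 and GJB2 above the controls, beside 12.2% of all genes, and PARD3 below, beside 18.3%. CDH1 lay above at its brightest probe only, and 2 of its 3 probes were below 0 for EEF1D-1357. For EEF1D-1893 there were 7 members at an unadjusted p under 0.05, beside 14.0% of all genes: CLDN12, MARVELD2, PARD3, DSG2, DSC2, DSC3 and PPL. Groups did not overlap for 11 members, beside 28.1% of all genes. These were CLDN12, CTNNA1, DSG2, DSC2, DSC3 and PKP2 above the controls, beside 13.7% of all genes. MARVELD2, PARD3, CDH2, DSG3 and PPL lay below, beside 14.4%, DSG3 at its brightest probe only. Probes of CTNNA1, DSG2 and MARVELD2 also differed in direction for EEF1D-1893.

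Within the slides, each shRNA was set against the single control of its slide, with no test. On slide 1 the members' median was 0.32 for EEF1D-1357 minus control replicate 2, beside 0.03 over all genes. On slide 2 it was -0.09 for EEF1D-1893 minus control replicate 1, beside -0.20 over all genes. DSC2 was at 0.75 on slide 1 and 0.82 on slide 2, CLDN12 at 0.32 and 0.54, DSC3 at 0.39 and 0.83, and PARD3 at -0.51 and -1.13. MARVELD2 was at -0.12 and -1.02, TJP3 at 0.77 and -1.45, EVPL at 2.13 and -1.85, and PPL at 0.09 and -0.96. Of the 35 members, 11 were above 0 on both slides, beside 22.2% of all genes. Another 3 (MARVELD2, PARD3 and CDH2) were below 0 on both, beside 30.9% of all genes. For CDH2 the slide 1 value rests on EEF1D-1357 replicate 3, which was not well above background. The other EEF1D-1357 arrays lay above control replicate 2 for CDH2. Control replicate 1 exceeded control replicate 2 by a median of 0.29 over the members and 0.24 over all genes. Without control replicate 2, 8 members were called for both shRNAs, namely CLDN5, CLDN12, MARVELD2, TJP3, PARD3, PARD6B, DSC2 and PPL, among 2940 genes called in all (23.1%). Without control replicate 1, 0 members were called, among 27 genes (0.212%). In these fits the lone control is assumed to vary like the other groups.

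The comparison of EEF1D-1357 with EEF1D-1893 lies wholly between slides, and only the 1 control on each slide bears on the slide's part in it. With slide as a block the members' median was 0.50, beside 0.17 over all genes, against 0.06 and -0.05 without it. In that fit 0 members were called, among 6 genes called in all (0.0471%). Desmosomal cadherins had the smallest p-values among the members. The DSG3 log2 fold change of EEF1D-1357 over EEF1D-1893 was 0.58 (SE 0.19, 95% interval 0.13 to 1.03, adjusted p = 0.742), and its 3 probes ranged over 0.58 to 0.65. For DSG2 it was -0.58 (SE 0.20, 95% interval -1.06 to -0.10, adjusted p = 0.742), with probes at -0.58, -0.44 and -0.38. For DSC3 it was -0.50 (SE 0.15, 95% interval -0.85 to -0.15, adjusted p = 0.742), with a second probe at -0.47. Neither shRNA's arrays overlapped with the other's for these 3 genes. With the slide block DSG3 was at 0.72, DSG2 at -0.79 and DSC3 at -0.44, with adjusted p from 0.276 to 0.361. DSC2, next to DSC3 on chromosome 24, was at 0.03 (95% interval -0.36 to 0.41), and PARD3 at -0.04 (95% interval -0.54 to 0.46), or 0.62 with the slide block.

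Of the 35 members, 0 were called by limma between the shRNAs, as were 0 of all genes (0%), and 3 had an unadjusted p under 0.05, beside 6.44% of all genes. The members' median was 0.06, beside -0.05 over all genes, and 22 were above 0, beside 41.4% of all genes. Groups did not overlap for 10 members, beside 21.8% of all genes. F11R, TJP3, PARD6B, JUP, DSG3, PPL and EVPL were higher with EEF1D-1357 on every array, beside 6.78% of all genes, and CDH3, DSG2 and DSC3 were lower, beside 15.0%. EVPL was at -2.85, -2.55 and -3.49 with EEF1D-1357, against -4.24, -4.18 and -4.55 with EEF1D-1893, the log2 fold change being 1.36 (SE 0.62, 95% interval -0.10 to 2.82). JUP was at 0.31 (95% interval -0.06 to 0.69) and TJP3 at 0.74 (95% interval -0.12 to 1.61). All 6 DSP probes were above 0, from 0.25 to 0.43, though its arrays overlapped.

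**Figure D5:**
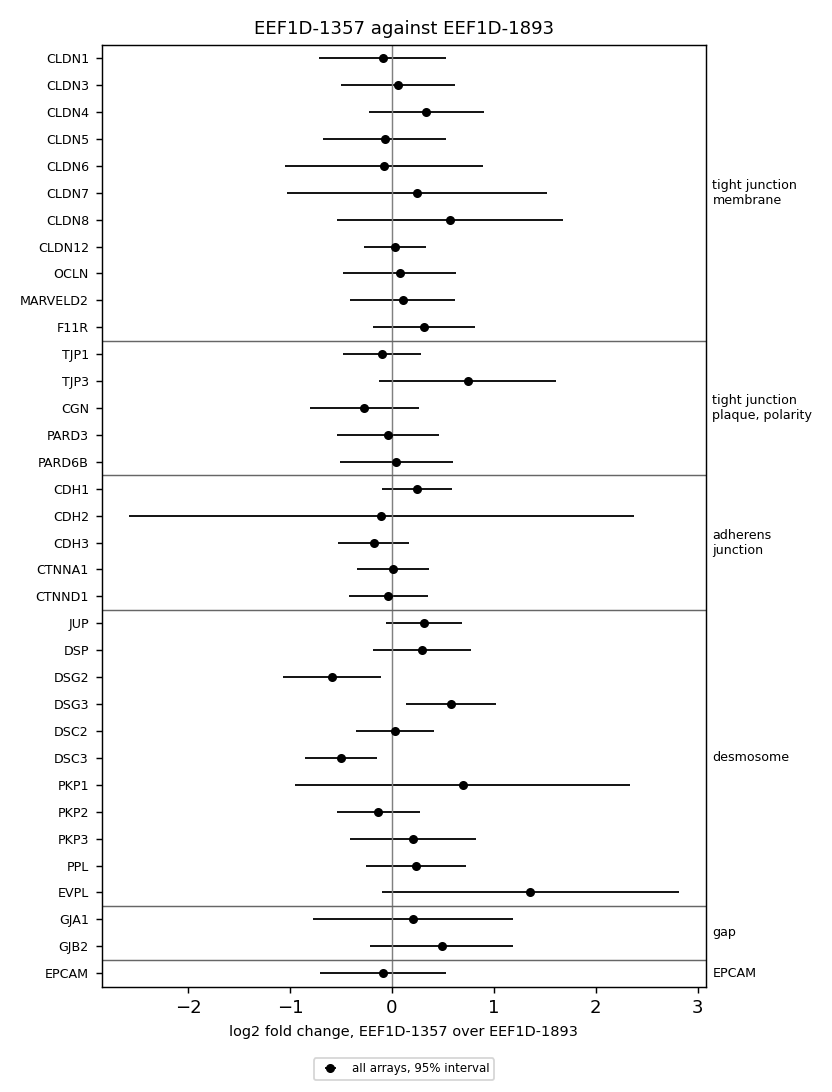
Log2 fold change of EEF1D-1357 over EEF1D-1893 for the 35 members, with 95% intervals. The intervals of DSG2, DSG3 and DSC3 leave out 0, on both sides of it, while those of DSC2 and PARD3 include 0 near their centre.

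Other junction genes outside the 39 were read from a longer list. Of 41 tested, 0 were called in any of the 4 comparisons. Their median log2 fold change with both shRNAs was -0.07, beside -0.07 over all genes. JAM3, a junctional adhesion molecule, had signals of 3.07, 2.93 and 2.31 with EEF1D-1357 and of 2.61, 2.53 and 2.41 with EEF1D-1893, against 4.13 and 3.16 in the controls. All shRNA arrays lay below both controls, at a log2 fold change of -1.0 (SE 0.30, adjusted p = 0.198). PANX1, a pannexin channel, was lower on every shRNA array too (adjusted p = 0.164), and GJA4, which encodes connexin 37, was at -0.44 (adjusted p = 0.276). Of the 41, 4 lay below both controls on every shRNA array, beside 9.04% of all genes, and 1 above both, beside 7.72%. Of the 9 gap junction genes on that list, 8 were below 0 with both shRNAs, as were 7290 of all 12738 genes. The 2 gap junction members, GJA1 and GJB2, were above 0.

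Further genes with small p-values on that list were, for EEF1D-1357, PARD6A at -0.75 (adjusted p = 0.234) and NECTIN2 at 0.52 (adjusted p = 0.254). For EEF1D-1893 they were PANX1 at -0.82 (adjusted p = 0.219), JAM3 at -1.13 (adjusted p = 0.253) and LIMA1 at 0.48 (adjusted p = 0.33). Between EEF1D-1357 and EEF1D-1893, CLDN9 was at -0.92, PARD6A at -0.48 and NECTIN2 at 0.38 (adjusted p = 0.742 each).

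Regulators of junction genes were read in the same way, and 0 of 19 were called in any comparison. KLF5, an activator of epithelial genes, had signals of 0.35, 0.82 and 0.85 with EEF1D-1357 and of 0.56, 0.60 and 0.50 with EEF1D-1893, against 1.38 and 1.30 in the controls. All shRNA arrays lay below both controls, at a log2 fold change of -0.73 (SE 0.16, adjusted p = 0.156). GRHL2, an activator of CDH1 and claudin genes in mouse epithelia, had signals of -1.77, -1.86 and -2.0 with EEF1D-1357 and of -1.72, -1.79 and -1.69 with EEF1D-1893, against -1.08 and -1.37 in the controls. It too lay below both controls on all shRNA arrays, at -0.58 (SE 0.13, adjusted p = 0.156). Of the 19 regulators, 2 (KLF5 and GRHL2) lay below both controls on every shRNA array, beside 9.04% of all genes. Another 2, TCF4 among them, lay above both controls, beside 7.72%. Of the 11 activators 9 were below 0 with both shRNAs, with a median of -0.20, and of the 8 repressors 4 were below 0, with a median of 0.14. Of all 12738 genes tested, 7290 were below 0, with a median of -0.07. TCF3, an E protein that can repress CDH1, was at -0.38 (adjusted p = 0.231), and TCF4 at 0.70 (adjusted p = 0.241). KLF4 was at 0.67 for EEF1D-1357 (adjusted p = 0.338), and TCF3 at -0.59 for EEF1D-1893 (adjusted p = 0.225). Between EEF1D-1357 and EEF1D-1893, FOXC2 was at 0.88, SNAI1 at -0.62, TCF3 at 0.42 and OVOL2 at -0.31 (adjusted p = 0.742 each).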

How the data were processed

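The data were 8 one-colour Agilent arrays. Per the file headers, Cy3 spot intensity values came from Feature Extraction 10.7.3.1. The submitters' processing notes name version 9.1 instead. Per the file headers, the intensity is background-subtracted and not normalized between arrays, and other 0 or 1 columns flag spots as well above background, saturated or outliers. The deposited table holds log2 values, with a median of 7.55 on each array and a correlation with the scanner values of 0.998 to 1.000, and was used as an alternative. Its direction is that of the scanner values, and its scale is that of quantile-normalized log2 intensity as judged from the values.

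Of 43653 probes that are not controls, 238 with an outlier spot were left out. Probe names are the array's, with 2096 older symbols updated through the RefSeq table of ARS-UCD2.0, and 2124 symbols that are not in it were kept. Log2 intensity was reduced by each array's 75th percentile, and a probe was kept (25726 named) if 2 or more arrays flagged it as well above background. The brightest probe per gene gave 12738 genes, 7460 of which had several probes. The linear model, in limma 3.58.1 (R 4.3.3), held all 8 arrays and a mean for each group (5 residual degrees of freedom, prior 2.12). The contrasts were both shRNAs against control, each shRNA against control and EEF1D-1357 against EEF1D-1893. Tests were two-sided, and calls were made where the p adjusted over all genes (Benjamini-Hochberg) was under 0.05. The workflow was tested on simulated data.

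The members and gene lists were chosen with earlier results of these data known, so lists are described by counts and medians. Values on every array are given for members with an unadjusted p under 0.05 in a contrast and for CDH1, CDH2, CDH3, OCLN, TJP1, CLDN1, CLDN4, JUP, DSP, GJA1 and EPCAM. Of the other lists, up to 4 genes per contrast with the smallest p are named, apart from some that are not reported here. Where more values are given by array (GJB2 and EVPL), the gene was chosen after its values were seen. Protein sequences were not used here, and probe sequences are shown in their place. Same-numbered replicates correlated in their deviations from the group means between -0.10 and 0.14, which does not show that the numbers pair the samples. The alternatives tried were other scalings, filters, probe choices, the deposited table, other fits, replicate and slide blocks, and leaving arrays out.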

Additional observations from a re-analysis of the deposited data

How the results depend on the processing

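Of the 35 members, 14 kept their direction with both shRNAs under every alternative, 13 with EEF1D-1357, 14 with EEF1D-1893 and 15 between the shRNAs. No member was called under another scaling, filter, probe choice or source of values. As single arrays were left out, 0 to 8 members were called for both shRNAs, 0 to 8 for EEF1D-1357 and 0 to 7 for EEF1D-1893, and the higher counts came without control replicate 2, where 23.1%, 23.1% and 14.5% of all genes were called. With slide as a block, which sets each shRNA against the 1 control on its slide, 1 member (PARD3) was called for both shRNAs, beside 5.37% of all genes, and 7 for EEF1D-1893, beside 14.5%. For either shRNA against control, the slide block gives the same fit as leaving out the control on the other slide. Those settings, and the values within a slide, are therefore not separate checks. With a replicate block, 0 members were called in every comparison, and the EEF1D-1357 median was 0.25. The median for both shRNAs was 0.015 with the mean of a gene's probes, and it ranged over 0.018 to 0.27 as single arrays were left out, beside -0.22 to 0.06 over all genes. For EEF1D-1357 it was 0.25 with median scaling, 0.27 with no filter, 0.27 with a filter on all 8 arrays, 0.32 with the slide block and 0.32 within slide 1, and over single arrays left out it ranged over 0.076 to 0.32. For EEF1D-1893 it was -0.087 with the slide block and within slide 2, and over single arrays left out it ranged over -0.087 to 0.21. Between the shRNAs it was 0.50 with the slide block, beside 0.17 over all genes, and ranged over 0.02 to 0.12 as single arrays were left out. Leaving out control replicate 1 together with EEF1D-1357 replicate 3, chosen after seeing the data, gave medians of 0.27 for EEF1D-1357 and 0.21 for EEF1D-1893. Median scaling moved the median of all genes for EEF1D-1357 from -0.09 to 0.03. Among genes with an unadjusted p under 0.05, it moved the percentage above 0 from 43.7% to 60.2% for both shRNAs, from 38.6% to 61.6% for EEF1D-1357 and from 39.6% to 63.1% between the shRNAs, where quantile normalization gave 50.1%, normexp 53.1% and the deposited values 49.9%. Beyond the fewer arrays or controls in a setting, the cause was not tested. With 2 controls that differ from each other, 0 of all 12738 genes were called for both shRNAs in the main fit. Their log2 fold changes ranged over -3.51 to 4.25, so far larger differences than that of CLDN12 were not called either. Signal over background limits CDH2, CLDN5 and the 4 members that were not tested.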
